A study of Mus musculus with 7 samples.

Results

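Genes that were on in mouse embryonic fibroblasts lacking p53 (p53-/-) and at background in those that lack Dnmt1 as well (p53-/- Dnmt1-/-) were collected from 7 Affymetrix arrays. A probe set, a group of short probes that reads the transcripts of a gene, was a member if its signal was at least 150 on all 3 p53-/- arrays and at most 30 on all 4 p53-/- Dnmt1-/- arrays. Of 22626 probe sets other than controls, 5326 met the upper threshold, 7486 met the lower threshold and 43 met both. Leaving out collagen and Hox genes and 11 further genes by name removed 6 of these, and 37 member probe sets remained. The same thresholds turned round, at most 30 in p53-/- and at least 150 in p53-/- Dnmt1-/- cells, were also met by 43 probe sets.

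All arrays shared the loss of p53, the tumour suppressor, and differed in Dnmt1, the enzyme that copies DNA methylation to the new strand after replication. Each genotype was measured untreated and after 24 h and 48 h of trichostatin A (TSA), an inhibitor of histone deacetylases. The p53-/- Dnmt1-/- cells were measured once more 2 weeks after TSA had been removed. Each of the 7 groups held 1 array of total RNA, and neither the TSA dose nor the number of cultures, embryos or clones behind each genotype is given in the sources used here, so genotype and culture cannot be told apart.

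DNA methylation at a promoter and removal of acetyl groups from histones are both known to keep genes silent, and Dnmt1 loss or TSA is used to ask which of them holds a gene off. The members were chosen for the opposite pattern, with RNA in the cells that had Dnmt1 and little or none in the cells that did not. Fibroblasts of the embryo are known for secreting matrix, growth signals and their inhibitors, and for patterning factors that record where in the body they came from.

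The labelled cell type was checked by 12 fibroblast and 8 mesothelial or simple epithelial markers. The summed fibroblast signal was 26314.4 to 31582.9 on p53-/- arrays and 9150.4 to 15701.3 on p53-/- Dnmt1-/- arrays, with 7 markers above every array of the other genotype and 1, decorin, below. The summed epithelial signal was 149.2 to 418.5 against 9681.0 to 16829.6, with all 8 markers higher without Dnmt1. Of these Epcam exceeded 30 only at 24 h of TSA, at 1.5 to 2.3 against 3.5 to 108.7, so its order is uncertain. These fibroblast and epithelial markers moved with the genotype as the members did, and their part in the members' low signals was not tested. Fewer cells of a type and less RNA per cell cannot be told apart in such RNA. Of 6 endothelial markers 5 were at 30 or less on every array, as were Ptprc, Itgam and Lyz2 of 7 macrophage markers. Csf1r read 84.7 to 161.8 in p53-/- Dnmt1-/- cells against 43.7 to 53.6 in p53-/- cells, whereas Cd68, Adgre1 and Cd14 overlapped. Of 5 skeletal muscle markers Myog and Myf5 were at 30 or less and Myod1 overlapped. Des read 43.9 to 557.9 without Dnmt1 against 6.8 to 14.6, and Actc1 53.1 to 344.7 against 18.0 to 22.4. Dnmt1 itself gave 308.2 to 695.6 in p53-/- cells and 74.0 to 206.5 in p53-/- Dnmt1-/- cells, lower in the direction the labels give. Where these probes lie relative to the deleted part of the gene is not known.

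The members were named through the array's annotation. There were 35 probe sets with 1 gene symbol, which covered 33 genes, since Tgfbi and Plpp3 each had 2. A further probe set, 1434881_s_at, carried the symbols Mir5130 and Kctd12 and is given by its identifier, and 1421002_at was not listed. By textbook role 7 genes were matrix proteins, 6 were secreted signals or their binding proteins, 9 were receptors or other surface proteins, 6 were enzymes, 3 acted in the cytoskeleton or in signalling and 2 were transcription factors. These roles were assigned after the members were known.

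Promoters are shown for 4 members, with every CpG, the pair of bases that Dnmt1 methylates, in capitals. Aspn and Ogn are shown because they lie on either side of Omd on chromosome 13 and had the largest differences at 48 h of TSA. Slit2 and 1 of the 2 starts of Gas2 are shown because they are at the CpG-rich end. Each line is the 250 bases before the RefSeq start (build GRCm38.p6), 5′ to 3′ on the plus strand, at chr13:49544193-49544442 for Aspn, chr13:49607765-49608014 for Ogn, chr5:47982905-47983154 for Slit2 and chr7:51861765-51862014 for the CpG-rich start of Gas2.
Aspn: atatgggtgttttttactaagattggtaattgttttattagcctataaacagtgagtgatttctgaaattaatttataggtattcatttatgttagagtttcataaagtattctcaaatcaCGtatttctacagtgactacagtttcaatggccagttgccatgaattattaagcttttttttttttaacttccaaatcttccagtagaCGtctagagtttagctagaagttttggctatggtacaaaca
Ogn: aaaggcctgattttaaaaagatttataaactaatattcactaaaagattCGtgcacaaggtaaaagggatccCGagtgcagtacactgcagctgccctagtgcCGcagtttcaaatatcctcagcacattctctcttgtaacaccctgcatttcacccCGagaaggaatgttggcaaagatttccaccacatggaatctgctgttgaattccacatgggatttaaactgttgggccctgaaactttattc
Slit2: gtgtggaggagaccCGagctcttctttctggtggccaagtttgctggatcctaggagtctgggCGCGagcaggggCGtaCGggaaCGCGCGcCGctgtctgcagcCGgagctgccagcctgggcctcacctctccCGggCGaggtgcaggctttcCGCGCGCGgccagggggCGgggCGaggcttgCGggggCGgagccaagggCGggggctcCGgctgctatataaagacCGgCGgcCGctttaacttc
Gas2: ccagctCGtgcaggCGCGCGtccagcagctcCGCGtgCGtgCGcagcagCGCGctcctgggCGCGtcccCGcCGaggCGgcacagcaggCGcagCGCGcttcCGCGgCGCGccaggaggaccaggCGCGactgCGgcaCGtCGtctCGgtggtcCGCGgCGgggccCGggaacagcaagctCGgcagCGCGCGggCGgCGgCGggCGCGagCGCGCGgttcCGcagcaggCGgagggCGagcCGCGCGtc

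These stretches held 2 CpGs in Aspn, 4 in Ogn, 25 in Slit2 and 50 in Gas2. RefSeq windows from 250 bases before to 50 after the start were found for 21 of the 33 member genes, 22 windows in all. Their CpG count ran from 3 to 59 with a median of 9.5, beside a median of 7.0 over all 32851 windows of the table. A count of 20 or more was seen in 5 of the 22, those of Tgfbi, B3galnt1, Slit2, Slc1a6 and the upstream start of Gas2, against 26.5% of all windows. The other Gas2 window held 3, the lowest count seen, and which start the Gas2 probe set reads is not known here. A count of 5 or less was seen in 8 of the 22 (36.4%), against 43.6% of all windows. The members thus spanned CpG-poor and CpG-rich promoters, as all windows did. The letters TATAAA, searched on both strands, were in 6 of 22 windows (Aspn, Cxcl15, Ogn, Svep1, Srgap3 and Slit2) and in 13.6% of all windows. The palindrome CACGTG was in the window of Slc1a6 alone and in 7.15% of all, and a CArG box in that of Cbr2 alone and in 1.63% of all. No methylation was measured on these arrays.

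The rule fixed the difference between genotypes, so it is described and not tested. Over the 37 members the median signal was 304.0, 347.0 and 541.6 in p53-/- cells at 0, 24 and 48 h. It was 6.7, 14.0 and 11 in p53-/- Dnmt1-/- cells at those times and 8.5 after removal. Of the 148 member signals on p53-/- Dnmt1-/- arrays 81 lay below 11.4, the 25th percentile of all signals, and 12 members were below it on all 4 arrays. The dimmest p53-/- array exceeded the brightest p53-/- Dnmt1-/- array by 6.74-fold for Foxc2, the least separated member, by 20.4-fold at the median and by 182-fold for the Plpp3 probe set 1448908_at. A gap of at least 2-fold between every array of each genotype, on the log2 scale described below, was found for 37 of 37 members by construction and for 4.02% of 14012 probe sets. The opposite gap was found for 2.21%.

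**Figure D1:**
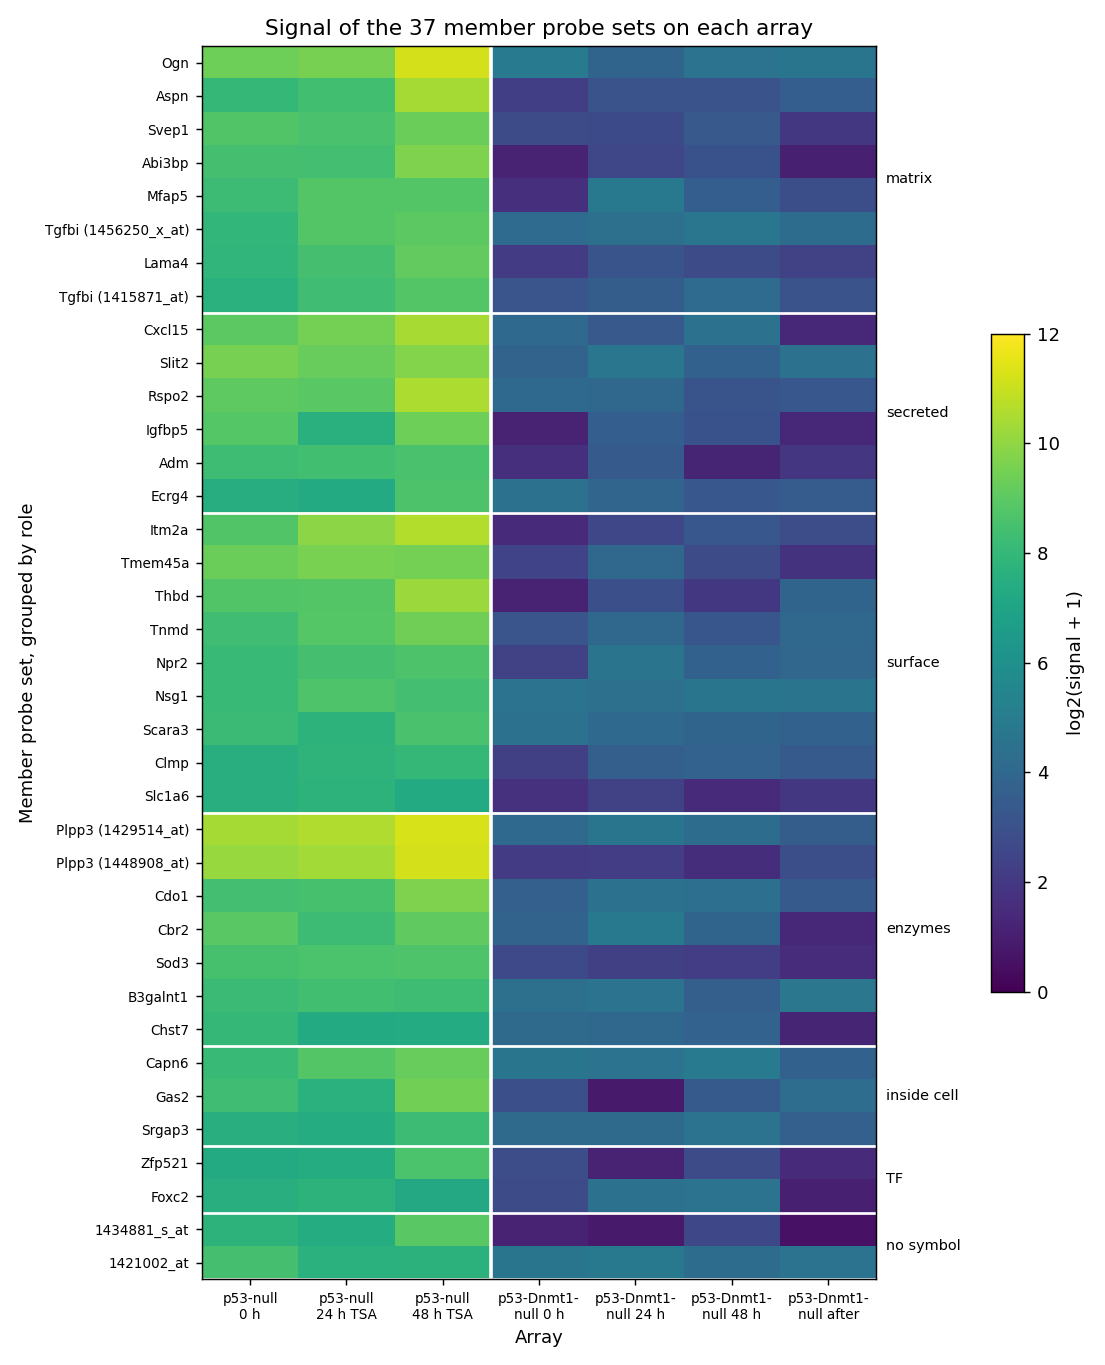
Colour gives log2(signal + 1) for each of the 37 member probe sets (vertical axis, grouped by role) on each of the 7 arrays (horizontal axis; white lines part the genotypes and the roles). Every p53-null cell lies at 150 or more and every p53-Dnmt1-null cell at 30 or less by the rule, and in 29 of 37 members the 48 h array was the brightest of the 3 p53-null arrays.

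At 24 h of TSA the members in p53-/- cells differed little and in both directions, and at 48 h most were brighter than untreated. Differences are given on the log2(signal + 11.4) scale, where 1 is 2-fold, and no group had a replicate. The median member difference from untreated was 0.14 at 24 h and 0.91 at 48 h, and 24 and 33 of 37 members lay above 0. Over all 14012 probe sets with a signal above 45.6 on some array the medians were 0.02 and 0.04, and over the 5326 at 150 or more on the p53-/- arrays they were -0.01 and -0.01. At 24 h 1 member was at least 2-fold higher and 1 lower, beside 3.22% and 1.86% of the 14012 and 1.22% and 1.07% of the 5326. At 48 h 17 members, of 16 named genes and 1434881_s_at, were at least 2-fold higher and 0 were lower. The same was true of 4.63% and 3.2% of the 14012 and of 2.14% and 2.22% of the 5326, the set that shares the members' limit in p53-/- cells. Because the rule requires 150 on the TSA arrays too, a gene that TSA lowered below 150 could not be a member. The members' median untreated signal was 304.0, so many could not have been 2-fold lower and still met the rule. The 5326 were not matched to the members in level.

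Much of the difference arose between 24 h and 48 h. From 24 h to 48 h 11 members were higher by at least 2-fold and 0 lower, beside 1.52% and 1.89% of the 14012 probe sets and 0.939% and 0.732% of the 5326. The brightest p53-/- array was that at 48 h for 29 members, at 24 h for 6 and untreated for 2, and it was that at 48 h for 38.4% of the 14012 and 35.6% of the 5326. In p53-/- cells at 0, 24 and 48 h the ratio of 3' to 5' signal of the Gapdh control was 0.852, 0.863 and 0.906 and the median signal 44.0, 47.9 and 48.8. The 18S ribosomal RNA controls read 194.0, 337.5 and 228.7 at the 3' end and 88.2, 233.0 and 151.4 at the 5' end, highest at 24 h. The fibroblast marker sum was 26314.4, 28486.0 and 31582.9 at these times. The sum of 5 neural and glial markers was 305.7, 1408.3 and 1210.8, of which Stmn2 alone gave 192.7, 1251.1 and 1092.0. The sum of the epithelial markers was 312.7, 418.5 and 149.2. The part of these in the members' change was not tested.

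A stricter size rule asked for 2-fold or more at 24 h and again at 48 h, both the same way. By it 1 of 37 members was higher, Itm2a, and 0 were lower, beside 1.51% and 1.03% of the 14012 probe sets and 0.469% and 0.638% of the 5326. In limma, with 24 h and 48 h pooled against untreated, 0 members were called at a Benjamini-Hochberg adjusted p of 0.05, as were 0% of the 14012. At an unadjusted limma p under 0.05 there were 5 members higher (4.75% of the 14012) and 1 lower (3.85%), which gives 1206 probe sets in all. Among the 37 members Itm2a had the smallest p, with a difference of 1.47 ± 0.36 (SE, limma adjusted p = 0.361). The test counts a change between 24 h and 48 h as error, so a gene that differs only at 48 h is not favoured by it.

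**Figure D2:**
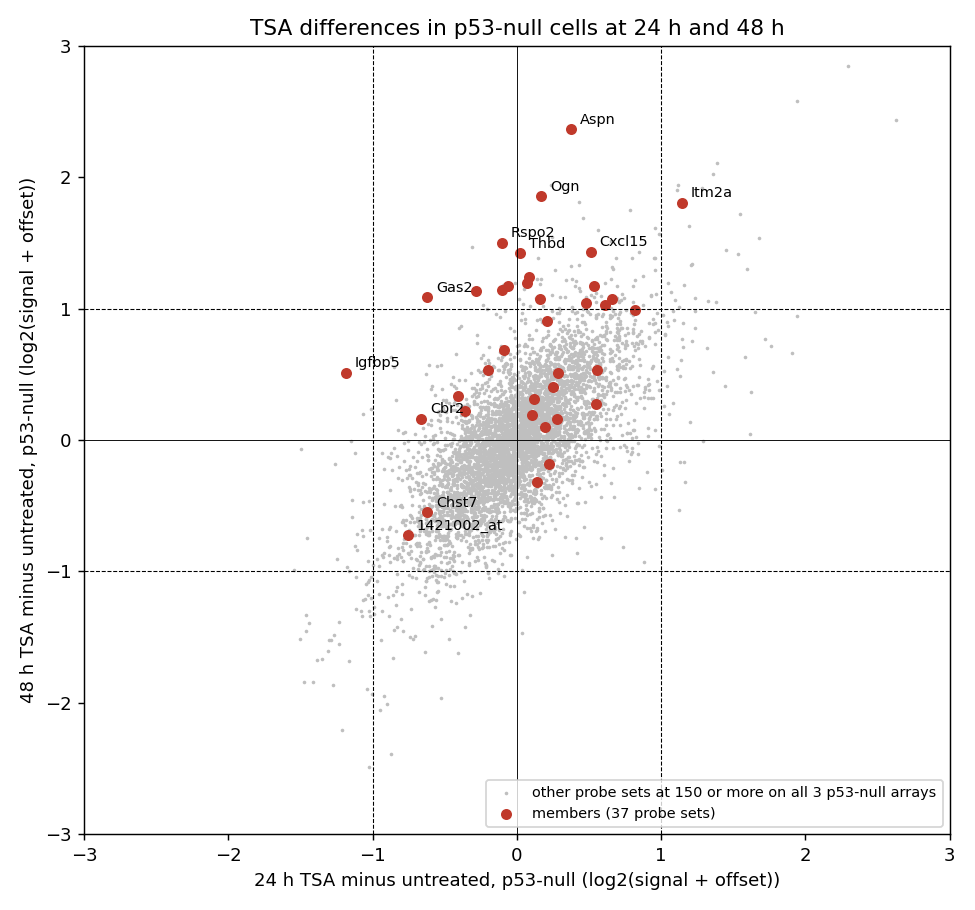
Each point is a probe set in p53-null cells, with the difference of the 24 h TSA array from untreated on the horizontal axis and that of the 48 h array on the vertical axis, both on the log2(signal + 11.4) scale; members are red, other probe sets at 150 or more on the 3 p53-null arrays grey, and dashed lines mark 2-fold. Of the 37 members 17 lie above the upper dashed line and 1, Itm2a, also lies beyond the right one.

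The matrix genes had 8 probe sets, with median differences of 0.45 at 24 h and 1.13 at 48 h. All 8 lay above 0 at 48 h and 5 were at least 2-fold higher, beside 2 of 3 in the smaller cytoskeletal and signalling group. Aspn and Ogn encode asporin and osteoglycin, small leucine-rich proteoglycans that sit on collagen fibrils. Aspn had signals of 250.3, 328.1 and 1339.0 in p53-/- cells at 0, 24 and 48 h, and of 3.7, 7.5 and 7.3 in p53-/- Dnmt1-/- cells with 11.1 after TSA removal. Ogn had 661.1, 743.0 and 2424.5, against 28.6, 13.8, 22.9 and 24.2. In both the 24 h value stayed near the untreated value and the 48 h value stood apart, by 2.37 for Aspn and 1.86 for Ogn on the log2 scale. The limma difference of Aspn was 1.37 ± 0.67 (SE, adjusted p = 0.600).

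The gene between them was also brighter in p53-/- cells and highest at 48 h, without being a member. Omd, osteomodulin, is the only protein-coding gene that the RefSeq table places between Aspn and Ogn, and it belongs to the same proteoglycan family. Its signals were 57.0, 105.1 and 227.3 in p53-/- cells and 3.0, 3.0, 5.8 and 3.8 in p53-/- Dnmt1-/- cells, so it missed the limit of 150 on 2 arrays. Its difference at 24 h, 0.77, was larger than the 0.38 of Aspn and 0.17 of Ogn. Ippk, a gene looked up in the same region, read 70.3 to 83.4 in p53-/- and 76.2 to 100.2 in p53-/- Dnmt1-/- cells. Other probe sets of the same 2 members repeated the course on the same RNA. The second Aspn probe set went from 115.8 to 149.9 and 494.8, and the second Ogn probe set from 611.6 to 829.6 and 2171.6. In p53-/- Dnmt1-/- cells the former read 0.4 to 4.8 and the latter 5.8 to 31.1, which is why this Ogn probe set fell just outside the rule. CpG was sparse upstream of both genes, as the sequences above show.

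**Figure D3:**
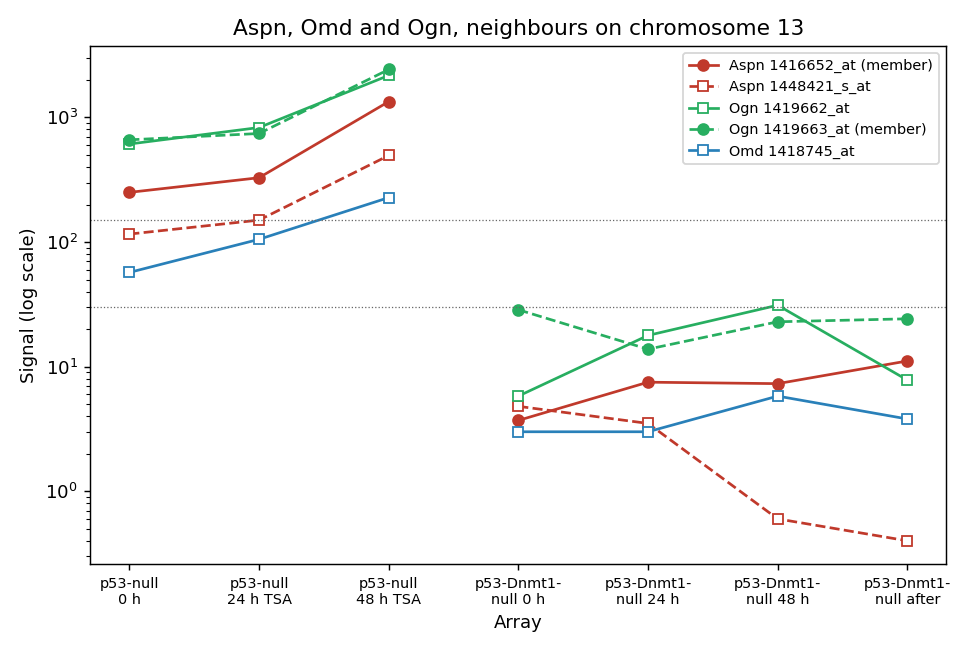
Signal on a log scale (vertical axis) of every probe set of Aspn, Ogn and Omd on each of the 7 arrays (horizontal axis); filled circles are members, open squares are other probe sets, and dotted lines mark 30 and 150. All 5 probe sets were highest at 48 h of TSA in p53-null cells, and in p53-Dnmt1-null cells none exceeded 31.1.

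The other matrix members shared the level but not the size of the 48 h difference. Tgfbi, a secreted protein that links collagens to integrins, had 200.1, 322.3 and 434.6 in p53-/- cells on 1 member probe set and 243.9, 438.3 and 496.9 on the other. Its limma differences were 0.87 ± 0.35 (adjusted p = 0.550) and 0.91 ± 0.30 (adjusted p = 0.471), with TSA arrays above untreated on both. On p53-/- Dnmt1-/- arrays the 2 probe sets read 7.4 to 17.2 and 17.4 to 24.8. Further probe sets of Tgfbi read 23.1 to 43.2 and 35.7 to 60.4 there, above the limit of 30 on some or all of these arrays. At 48 h in p53-/- cells these differed from untreated by 0.74 and 0.48, beside 1.08 and 0.99 for the members. Tgfbi thus passed 2-fold at 48 h on 1 member probe set alone.

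Lama4, a laminin alpha chain of vessel and muscle basement membranes, had 238.7, 350.5 and 553.4 in p53-/- cells and 3.4 to 7.6 in p53-/- Dnmt1-/- cells. Abi3bp, a secreted protein with fibronectin-like domains, had 355.1, 338.9 and 816.9 against 1.1 to 7.1. Abi3bp was flat at 24 h and 1.18 higher at 48 h, and its second probe set went from 59.8 to 51.3 and 156.0. Svep1, a large adhesive matrix protein, had 431.1, 374.4 and 628.3 against 2.9 to 9.2. Mfap5, a glycoprotein of elastic microfibrils, had 296.6, 440.3 and 434.4, against 2.1 untreated and 27.8, 11 and 6.4 on the later p53-/- Dnmt1-/- arrays. A second Mfap5 probe set, at 86.3 to 135.8 against 13 to 33.6, met neither threshold.

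Among secreted signals, the Wnt enhancer Rspo2 had the largest 48 h difference. R-spondins bind Lgr receptors and raise the number of Wnt receptors on the cell. Rspo2 had 517.1, 479.4 and 1486.7 in p53-/- cells and 16.1, 15.2, 7.7 and 8.5 in p53-/- Dnmt1-/- cells. Its 48 h signal was 2.88 times the untreated one, and its 24 h difference was -0.11 on the log2 scale. Cxcl15, a chemokine best known from mouse lung, had 500.5, 718.0 and 1372.5 against 1.5 to 21.2, and was higher at each later time. Ecrg4, the precursor of the secreted peptide augurin, had 175.8, 162.6 and 401.0 against 8.6 to 21.7.

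Other secreted members differed little or changed direction with time. Slit2, a repulsive guidance ligand of Robo receptors, had 754.9, 586.3 and 881.3 in p53-/- cells and 13.1, 25.6, 12.2 and 21.9 in p53-/- Dnmt1-/- cells. Its receptor Robo1 read 43.0, 75.7 and 118.2 against 3.4 to 10.6. Robo1 was 1 of 9 partner genes of members looked up after the members were known. The Rspo2 receptors Lgr5 and Lgr6 overlapped between genotypes, at 26.5 to 39.9 against 19.8 to 40.2 and 44.0 to 54.8 against 23.8 to 58.4. So did Rnf43, Nppc, Calcrl, Ramp2 and Ramp3, whereas the Igf1r probe sets differed from each other, with no overlap on 1 (213.6 to 324.2 against 93.4 to 208.2) and overlap on the other. Adm, the precursor of the vasodilator adrenomedullin, had 304.0, 331.4 and 380.4 against 1.4 to 9.5. Igfbp5 binds insulin-like growth factors and had 456.1, 194.1 and 656.2 against 1.2 to 11. It was the member that was 2-fold lower at 24 h, by a difference of -1.19, and it stood at 0.51 at 48 h. A second Igfbp5 probe set read 141.5, 67.8 and 82.6 in p53-/- cells and 26.6 to 42.8 in p53-/- Dnmt1-/- cells, so the probe sets share the lower 24 h value but not the 48 h one.

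Surface members included Itm2a, the member higher at both times. Itm2a, a membrane protein of developing cartilage and of T cells, had 433.5, 970.0 and 1545.8 in p53-/- cells and 1.7, 4.8, 8.6 and 6.2 in p53-/- Dnmt1-/- cells. A second probe set gave 427.4, 933.7 and 1633.3 against 29.4 to 64.7. The p53-/- courses were alike, whereas the second probe set kept more signal without Dnmt1. When each gene was represented by its brightest probe set, this one took the place of the member, and 0 members passed the size rule.

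Thbd, thrombomodulin, the thrombin receptor of vessel walls, had 432.2, 438.7 and 1179.2 against 1.3 to 13.4. Tnmd, a membrane protein that marks tendon cells, had 322.1, 453.9 and 675.3 against 7.9 to 15.8. These differed by 1.42 and 1.04 at 48 h. Tmem45a, a membrane protein, had 640.5, 778.6 and 717.4 against 2.4 to 15.5. Npr2, the receptor of C-type natriuretic peptide, had 282.5, 347.0 and 406.5 against 4.2 to 23.8. The 3 courses of Tnmd, Tmem45a and Npr2 had both TSA arrays above untreated.

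The remaining surface members changed little with TSA. Nsg1, an endosomal protein of neurons, had 277.6, 411.8 and 337.7 against 20.3 to 24.2, and Clmp, an immunoglobulin-family adhesion molecule, 187.1, 224.9 and 251.1 against 3.9 to 12.7. Scara3, a scavenger receptor, had 293.4, 218.2 and 373.1 against 12.4 to 21.4. Slc1a6, a glutamate transporter known from Purkinje neurons, had 183.6, 215.5 and 160.3 against 1.8 to 4.0. Another Nsg1 probe set read 0.9 to 7.7 on all 7 arrays, so the presence of Nsg1 rests on 1 probe set.

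Among enzymes Plpp3 was the brightest member. It removes phosphate from bioactive lipids at the cell surface, lysophosphatidic acid among them. Its member probe sets had 1329.8, 1537.4 and 2504.9, and 1144.9, 1280.8 and 2418.3, in p53-/- cells. In p53-/- Dnmt1-/- cells they read 10.8 to 24.4 and 2.0 to 6.3. At 48 h they differed from untreated by 0.91 and 1.07, so the probe sets fell on either side of 2-fold with nearly the same course.

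Cdo1, cysteine dioxygenase, which turns cysteine towards taurine, had 343.6, 365.0 and 828.8 in p53-/- cells against 9.6 to 21.5, and differed by 1.24 at 48 h. Sod3, the superoxide dismutase of the extracellular space, had 364.8, 392.3 and 418.1 against 1.9 to 5.2. Its second probe set had 130.5, 140.9 and 154.4 against 2.9 to 20.3. Sod3 thus stayed level with TSA by both probe sets. Cbr2, a carbonyl reductase, had 482.5, 300 and 541.6 against 1.6 to 27.7, and B3galnt1, a glycolipid sugar transferase, 288.4, 331.8 and 309.3 against 11.4 to 25.7. Chst7, a sulfotransferase of chondroitin, had 251.7, 159.6 and 168.6 against 1.4 to 16.6 and was the named member with both TSA arrays below untreated. The unlisted probe set 1421002_at did the same, at 352.6, 204.1 and 209.4 against 17.8 to 28.0, with a limma difference of -0.74 ± 0.32 (adjusted p = 0.574).

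Inside the cell, Gas2 links actin to microtubules and is known from growth-arrested fibroblasts. Gas2 had 318.3, 202.4 and 688.2 in p53-/- cells and 6.7, 0.8, 9.4 and 18.3 in p53-/- Dnmt1-/- cells, lower at 24 h and higher at 48 h. Capn6, a calpain without protease activity that binds microtubules, had 283.4, 437.6 and 591.2 against 12.3 to 30, and its second probe set 142.2, 264.1 and 333.2 against 3.4 to 16.5. Both Capn6 probe sets were higher at each later time. Srgap3, which acts downstream of Slit and Robo, had 183.0, 171.6 and 301.6 against 11.7 to 22.8.

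Of the transcription factors, Zfp521, a zinc-finger regulator of mesenchymal cell fate, had 160.0, 168.7 and 381.5 in p53-/- cells against 1.3 to 6.2. Foxc2, a forkhead factor of mesoderm, had 191.8, 212.3 and 151.7 against 5.9, 21.8, 22.5 and 1.1. Zfp521 differed by 1.20 at 48 h and Foxc2 by -0.32. The probe set 1434881_s_at, with the symbols Mir5130 and Kctd12, had 213.9, 173.3 and 482.4 against 0.5 to 5.1.

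Further probe sets of the member genes read the same RNA, and their genes had been chosen on this contrast, so they are described only. There were 15 such probe sets for 14 of the genes. In 10 of them every p53-/- array was at least 2-fold above every p53-/- Dnmt1-/- array, as in 4.02% of the 14012 probe sets. The second probe sets of Igfbp5, Lama4 and Slit2 had a smaller gap. Those of Nsg1 and Srgap3, each at 14.3 or less, overlapped between genotypes.

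The thresholds cut through a continuous range. Just inside 150 were Foxc2, Chst7 and Zfp521, whose lowest p53-/- signals were 151.7, 159.6 and 160.0. Just outside it were the adhesion molecule Nectin3, the Wnt receptor Fzd8 and the second Capn6 probe set, at 147.3, 142.9 and 142.2. Just inside 30 were Capn6, Ogn and 1421002_at, whose highest p53-/- Dnmt1-/- signals were 30, 28.6 and 28.0. Just outside it were Islr, an immunoglobulin-family protein, the second Ogn probe set and the lymphatic growth factor Vegfd, at 30.3, 31.1 and 31.4. Genes on either side of a threshold were therefore alike in level, and the count of 37 is a count under these limits.

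Among probe sets that were not members, the likeness to the mean log2 profile of the 37 members over the 7 arrays was highest for Sfrp1, Tle2, Osr1, Lmcd1 and Atp6ap1, with Pearson r of 0.999, 0.998, 0.998, 0.998 and 0.997. A member's r with the mean of the other members was 0.992 at the median. With 7 arrays and a large step between genotypes such values are easily reached, and they are given as a description. Sfrp1, a secreted Wnt inhibitor, read 84.5, 98.8 and 141.5 in p53-/- cells and 3.9 to 5.5 in p53-/- Dnmt1-/- cells. Osr1, a patterning factor, read 482.2 to 641.9 against 107.9 to 135.6, the same course with signal in both genotypes.

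In p53-/- Dnmt1-/- cells the rule held every member at 30 or less with TSA, so a member could not have been reactivated past that level.

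The question was therefore asked again with the limit set on the untreated array alone. Probe sets at 150 or more on the 3 p53-/- arrays and 30 or less on the untreated p53-/- Dnmt1-/- array numbered 81, the 37 members and 44 more. Of these 81, 35 exceeded 30 at 24 h of TSA, 26 at 48 h and 21 at both times, and 10 were at least 2-fold higher at both times, 23 at 24 h and 11 at 48 h. After removal 14 exceeded 30 and 6 were 2-fold higher. Of all 9275 probe sets at 30 or less on that array, 9.84% exceeded 30 at 24 h, 8.71% at 48 h and 4.84% at both times, and 1.73% were 2-fold higher at both times, 5.52% at 24 h and 3.27% at 48 h. After removal the shares of the 9275 were 9.74% and 6.24%. The 81 started higher, with a median untreated signal of 16.7 against 9.0. Among probe sets that started between 10 and 30, an alternative added after the data were seen, 20 of 53 exceeded 30 at both times, or 37.7%, against 9.14% of 4377, with median starts of 23.3 and 19.1. A low start chosen on 1 array favours higher values on the next arrays in each of these sets. This pull need not be equal, because only the 81 were also required to read 150 or more in p53-/- cells. How much of the excess over the 9275 it makes up was not tested.

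None of the 81 reached 150 at both times, and 4 reached it at 24 h, 0 at 48 h and 1 after removal. Of the 9275 probe sets 0.0539% reached it at both times, 0.151% at 24 h, 0.0647% at 48 h and 0.097% after removal. Blvrb, biliverdin reductase, had 26, 668.7 and 143.5 at 0, 24 and 48 h and 44.9 after removal, against 225.7, 520.7 and 178.4 in p53-/- cells. Crabp2, a carrier of retinoic acid, had 6.7, 279.3, 100.3 and 26.6, against 780.0 to 986.2. Both were highest at 24 h and were lower again after removal, Crabp2 to below 30.

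Of the other probe sets with a strong 24 h value, 3 were likewise lower at 48 h and lower again after removal. Sqor, a mitochondrial enzyme that oxidises sulfide, had 19.9, 157.6, 54.9 and 13.8. Stmn2, a tubulin regulator of neurons, had 13.8, 134.1, 49.8 and 5.5, and Hebp1, a heme-binding protein, 26.2, 152.2, 27.2 and 11.3. Elk3, an ETS-family transcription factor, had 30, 123.9, 45.5 and 50.2, higher after removal than at 48 h. Cyba, a subunit of the NADPH oxidase, was unlike these, at 18.7, 32.1, 4.4 and 267.0, high only after removal. Control probes for 18S ribosomal RNA read 2549.1 and 2039.0 on this 24 h array, against 688.1 and 223.7 untreated, and the part of this in its higher values was not tested. At 48 h these controls read 1292.1 and 601.5.

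Of the 21 probe sets above 30 at both TSA times, 12 were at 30 or less 2 weeks after removal and 9 were still above it. Those at 30 or less included Ccn3, a matricellular protein, at 21.3 after 25.3 untreated and 63.5 and 98.3 with TSA, and Sash1, a scaffold protein, at 23.2 after 67.1 and 59.8. Those above included the BMP antagonist Grem1 at 73.5, after 28.3 untreated and 69.3 and 42.7 with TSA, and the transcription factor Tcf4 at 67.4, after 29.7, 54.0 and 60.8. Levels this close to 30 rest on a single array each.

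**Figure D4:**
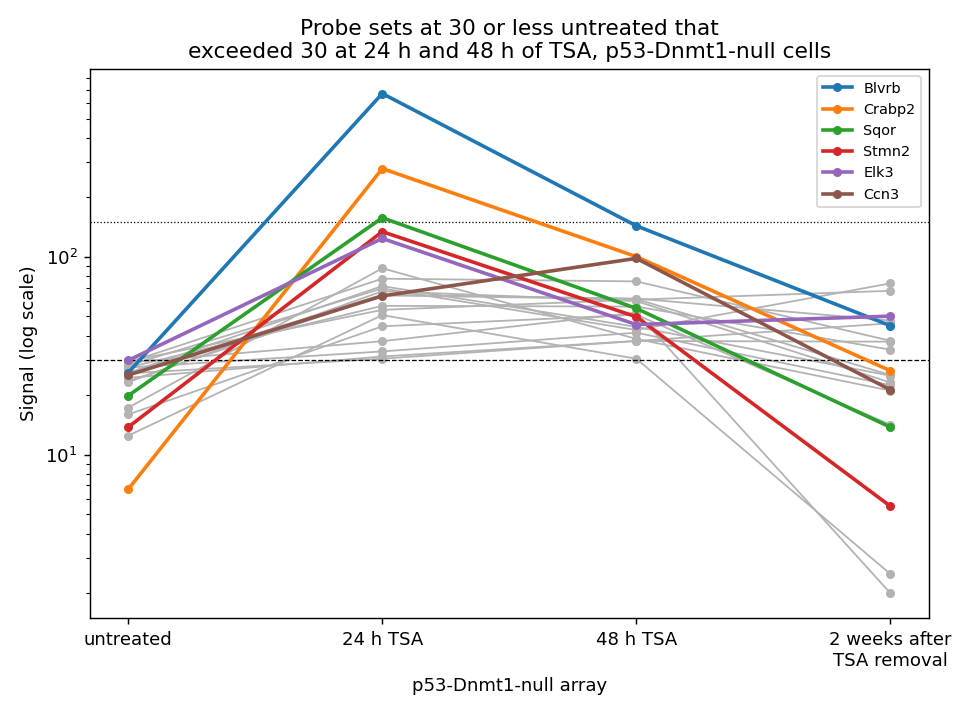
Signal on a log scale (vertical axis) on the 4 p53-Dnmt1-null arrays (horizontal axis) for the 21 probe sets that were at 150 or more on the 3 p53-null arrays, at 30 or less on the untreated p53-Dnmt1-null array and above 30 at both TSA times; the 6 brightest are coloured, and lines mark 30 and 150. After removal 12 were at 30 or less again and 9 were above it.

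Lists of related genes, written with earlier results of these data known, set some members beside their families. They held 15 of the 33 member genes, and 18 were in none, so most members are not covered. Of 87 matrix genes other than collagens with a probe set above the filter, 37 had every p53-/- array at least 2-fold above every p53-/- Dnmt1-/- array and 0 the reverse, against 4.02% and 2.21% of all probe sets. Among them were 7 member genes, Aspn, Ecrg4, Igfbp5, Lama4, Mfap5, Ogn and Tgfbi. The list differs from the matrix role above, which holds Abi3bp and Svep1 but not Ecrg4 and Igfbp5. At 48 h of TSA in p53-/- cells 21 of the 87 were at least 2-fold higher and 0 lower. Of all probe sets tested 4.63% and 3.2% were. The median difference of the 87 was 0.38. Of 50 mesenchymal transcription factors, Foxc2 the member, 18 were higher in p53-/- cells by that gap and 2 lower.

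Of 62 secreted signals 14 were higher in p53-/- cells by the gap and 6 lower, and 12 were 2-fold higher at 48 h of TSA and 0 lower, beside the same 4.63% and 3.2%. Of 32 guidance genes 6 were higher and 1 lower by the gap, and of 51 metabolic genes 9 and 7. The corresponding counts were 12 and 1 of 53 growth factor and cytokine receptors, 12 and 3 of 39 adhesion molecules and 5 and 4 of 42 cytoskeletal genes. These lists name no member, and Clmp and Gas2 are not on them although their roles given above are related. For 21 imprinted genes the counts by the gap were 5 and 1, and for 22 G protein regulators 6 and 0. For 29 channels and transporters they were 5 and 4, and for 22 genes that deacetylase inhibitors are known to induce 3 and 1. For 29 genes of the X chromosome, listed for mesenchymal or germline roles, they were 14 and 1. That list was chosen by role and does not stand for the X chromosome. Members of the X chromosome were Capn6, Chst7, Itm2a and Tnmd, 4 of the 35 named probe sets, where 3.07% of named probe sets at 150 or more lie on the X. In limma 0 genes of any of these lists were called for TSA in p53-/- cells at an adjusted p of 0.05.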

How the data were processed

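RNA was measured on 7 arrays, 1 per group. The authors deposited linear signal intensities, made with MAS5 per the submitters' processing notes. For the MAS5 version and target value, nothing is given in the sources used here. Every array had a 2% trimmed mean of 150.0 after rounding, so the arrays had already been scaled. Symbols came from the array's annotation, updated through Entrez identifiers to RefSeq (GRCm38.p6), and probe sets with several symbols were left unnamed.

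Signals were analysed as log2(signal + 11.4), the offset being the pooled 25th percentile, which understates the change of dim genes. The test ran on 14012 probe sets, not genes, with a signal above the pooled median of 45.6 on at least 1 array. The tool was limma 3.58.1 (R 4.3.3; intensity trend on), fitted to cell means for genotype and treatment with 24 h and 48 h pooled (2 residual degrees of freedom, lone arrays assumed to vary like these pairs) and Benjamini-Hochberg adjustment over all probe sets. It was tested on simulated data. Its p-values reflect only how far the 24 h and 48 h arrays differ, which can be technical, and precision is limited by having 7 arrays.

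Members and lists were chosen with earlier results of these data known. Every named member may be given, with full values for those past the size rule, the 12 brightest, those nearest a threshold, those with a disagreeing probe set and up to 3 per list; other probe sets were named by likeness (5) or by the highest p53-Dnmt1-null signal (6), and the partner genes, Omd, Ippk, Elk3, Ccn3, Sash1, Grem1 and Tcf4 after their values were seen. Alternatives covered thresholds, arrays, offset, filter, normalization, trend, fold, time and unit. Control probe sets (64) were left out.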

Additional observations from a re-analysis of the deposited data

How the results depend on the processing

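The number of members, 37, was 76 with the p53-null threshold at 100, 20 and 64 with the p53-Dnmt1-null threshold at 20 and 45, and 92 with the rule on untreated arrays only; the other alternatives gave 28 to 53. By the size rule for TSA in p53-null cells, 1 member was higher and 0 lower; at 1.5-fold these were 4 and 1, at 48 h only 17 higher, at 24 h only 1 lower, and with 1 probe set per gene 0 higher. Limma called 0 members under every alternative run. It could not be fitted without the 24 h or the 48 h arrays, which leave no residual degrees of freedom. The members' median TSA difference, 0.42, was 0.91 without the 24 h arrays and 0.14 without the 48 h arrays, and 0.39 to 0.43 elsewhere. Of 254 refitted member differences 1 changed sign, Slc1a6, from 0.017 to -0.0023 under quantile normalization. Only a changed offset or normalization could alter a difference, because the filter, trend, array and unit settings left the estimate itself as it was. Most of the 254 could therefore not change sign. The signs at 24 h and 48 h were opposite in 13 of 37 members. With the untreated limit only, 21 probe sets exceeded 30 at both TSA times in p53-Dnmt1-null cells, and 32 exceeded 45 with the threshold at 45. The 10 at least 2-fold higher there became 5 with the threshold at 20, 2 with the offset at the pooled median and 20 with it at the pooled 10th percentile. No paired analysis was possible because each group held 1 array, the labels number no replicates, and a block on the TSA time that the genotypes share would remove the TSA difference being tested. No detection call was used here, so levels under 30 are not ordered.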
